A study of Mus musculus with 40 samples.

Results

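Fibroblast growth factors (FGFs) are secreted ligands that bind tyrosine kinase receptors together with heparan sulfate, a sugar chain of the cell surface and matrix. The bound receptor passes its signal through adaptors to RAS and the ERK kinases, and Sprouty, Spred and Dusp proteins dampen it in return. In embryonic mesenchyme, fibroblast ligands such as Fgf7 and Fgf10 act on neighbouring epithelium through a splice form of Fgfr2, and Fgf9 and Fgf18 act largely on mesenchymal receptors. Described here are 10 genes of this family, the 7 ligands Fgf1, Fgf2, Fgf7, Fgf9, Fgf10, Fgf18 and Fgf21 and the 3 receptors Fgfr1, Fgfr2 and Fgfr3, out of 24062 genes in the count table. They were picked by symbol, and the group was selected on its measured change between treated and control libraries. Their values in that comparison are therefore a description, with no test.

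The RNA came from fibroblasts grown from mouse embryos (MEFs) of 13.5 days post coitum, at the third passage, of the mixed strain C57BL/6J-129P2OlaHsd. The embryos were wild type (WT), heterozygous (Het) or knockout (KO) for Sall2, which encodes a zinc finger transcription factor. Cells were left untreated (control) or were given 1 µM doxorubicin, a DNA-damaging topoisomerase poison, for 16 h. There were 1 WT, 1 Het and 3 KO libraries in control. With doxorubicin there were 1 WT, 1 Het and 3 KO libraries, but the KO libraries numbered 2 and 3 were identical in all 24062 gene counts, so they entered as 1 sample, called KO embryo 2. Its embryo is uncertain, so ratios within pairs are also given against the control of KO embryo 3 where they differ. The 9 libraries that differ had between 15560728 and 24122414 counts. Normalized values are counts per 1000000 (CPM) after TMM scaling, on which 3 counts correspond to between 0.123 and 0.169 CPM. Such limits cover counting error only.

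Sall2 had 38.1 CPM in the WT control library and 24.0 CPM in the Het one, against 20.1, 24.4 and 19.1 CPM in KO embryos 1, 2 and 3. With doxorubicin it had 9.36 CPM in WT, 7.80 CPM in Het, and 4.19 and 3.72 CPM in KO embryos 1 and 2. Within each treatment the WT library was the highest, and reads of the gene were still counted in KO. Sall2 itself fell with doxorubicin over the genotypes (log2 fold change -2.12, standard error 0.204, edgeR FDR 6.90e-05, lower in 4 of 4 pairs).

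The Het and KO embryo 3 control libraries stood apart from the other 3 controls. The 10 interferon-stimulated genes of a fixed list, led by Bst2, summed to 46.2, 63.7 and 47.5 CPM in WT and KO embryos 1 and 2, against 2171 CPM in Het and 2386 CPM in KO embryo 3. With doxorubicin their sum was 331, 392 and 417 CPM in WT and KO embryos 1 and 2 and 1417 CPM in Het. The 12 fibroblast markers, led by Fn1, the gene of fibronectin, summed to 97470, 79920 and 88710 CPM in WT and KO embryos 1 and 2 but to 20550 CPM in Het and 16840 CPM in KO embryo 3. With doxorubicin they summed to 59860, 54920 and 47710 CPM in WT and KO embryos 1 and 2 and to 22030 CPM in Het. Each of the 12 was detected in all 9 libraries. Fn1, Col1a1 and Col1a2 carry most of these sums, and the markers did not all differ so. Vim was at 6421, 7281 and 6312 CPM in the WT and KO embryo 1 and 2 controls, against 2211 CPM in Het and 2215 CPM in KO embryo 3. Dcn was at 67.2, 144.5 and 40.3 CPM, against 41.9 CPM in Het and 68.3 CPM in KO embryo 3. The 7 macrophage markers in the table, led by Lyz2, summed to 161, 115 and 91.1 CPM in WT and KO embryos 1 and 2, 545 CPM in Het and 412 CPM in KO embryo 3, and with doxorubicin to 108, 90.3 and 64.5 CPM, and 563 CPM in Het. Aif1, a defining macrophage gene, was at 0.755, 0.517 and 0.282 CPM in the WT and KO embryo 1 and 2 controls, against 30.7 CPM in Het and 18.1 CPM in KO embryo 3. The markers did not all differ so. Csf1r was at 28.9, 26.3 and 18.6 CPM in WT and KO embryos 1 and 2, 36.9 CPM in Het and 22.8 CPM in KO embryo 3. Cd68 was at 8.36, 7.92 and 6.31 CPM, against 12.7 CPM in Het and 9.34 CPM in KO embryo 3. Results are therefore also given without Het and without the control library of KO embryo 3. In such bulk samples, fewer cells of a type and less RNA per cell cannot be told apart.

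Doxorubicin was compared with control across the 3 genotypes in 1 fit with genotype as a term. Of 16656 genes tested, 3645 rose and 3115 fell at a false discovery rate (FDR) under 0.01, together 6760 genes or 40.6%. This number was 10281 without Het and the control library of KO embryo 3, and 4322 without the doxorubicin library of KO embryo 2. Without that of KO embryo 1 it was 4530. Of the 10 FGF genes 10 passed the filter on low counts, and 5 were past this threshold. Fgf18 and Fgfr3 were higher (2 genes, where 21.9% of the genes tested rose), and Fgf7, Fgf21 and Fgfr1 were lower (3 genes, where 18.7% fell). Fgf21 missed the threshold without the control or the doxorubicin library of KO embryo 1 or 2. The same held with upper-quartile scaling, with total counts, without WT and without Het. Since the group was chosen on this comparison, these counts and calls describe the choice. Nothing is read from them or from the settings that changed them.

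Among the ligands, Fgf7, the keratinocyte growth factor, had the most counts in control. It was at 68.4 CPM in WT, 43.5 CPM in Het, and 63.7, 71.5 and 103 CPM in KO embryos 1, 2 and 3. With doxorubicin it was at 3.73 CPM in WT, 3.76 CPM in Het, and 3.42 and 2.98 CPM in KO. The lowest control library lay far above the highest treated one, in each genotype. The mean was 20.2-fold lower with doxorubicin, from 70.1 ± 21.6 CPM (SD, n = 5) to 3.47 ± 0.361 CPM (SD, n = 4), and the fitted log2 fold change was -4.26 (standard error 0.272). It was -4.32 without Het and the control of KO embryo 3, so the difference was as large without the libraries that stood apart. Within pairs, the log2 ratio of doxorubicin to control came to -4.16 for WT, -3.50 for Het, -4.18 for KO embryo 1 and -4.54 for KO embryo 2 (-5.07 against the control of KO embryo 3). Fgf7 spans chromosome 2 from 126034658 to 126091185 (GRCm38) and overlaps Fam227b, which had at most 4 counts in any library.

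Fgf18, a ligand best known from skeletal and lung development, moved the other way. It was at 1.46 CPM in WT, 1.02 CPM in Het and 1.29, 1.58 and 0.496 CPM in the KO embryos in control, and at 12.5, 9.80, 11.5 and 14.6 CPM in WT, Het and KO embryos 1 and 2 with doxorubicin. The treated and control libraries did not overlap, and the mean was 10.3-fold higher. The log2 ratios within pairs were 3.02, 3.14, 3.06 and 3.13 in WT, Het and KO embryos 1 and 2, the last of which was 4.63 against the control of KO embryo 3. The fitted log2 fold change was 3.39 (standard error 0.337), between 3.17 and 3.59 over 18 other settings. Fgf18 lies on chromosome 11 from 33117430 to 33147400.

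Fgf9, a ligand expressed by several epithelia and mesothelium in the embryo, was at 1.96 CPM in WT, 1.97 CPM in Het and 3.73, 2.48 and 0.722 CPM in KO in control. With doxorubicin it was at 6.57, 8.99, 5.57 and 5.37 CPM in WT, Het and KO embryos 1 and 2. These groups did not overlap, and the fitted log2 fold change was 1.59 (standard error 0.438). Fgf2, the basic FGF that many cultured cells make for themselves, was at 13.4 CPM in WT, 9.50 CPM in Het and 14.0, 16.6 and 6.90 CPM in KO in control. With doxorubicin Fgf2 was at 7.02, 4.95, 7.33 and 7.25 CPM, lower than its own control in 4 of 4 pairs, or in 3 of 4 where the library of KO embryo 2 is set against the control of KO embryo 3 (log2 ratio 0.071 in place of -1.19). The control library of KO embryo 3, at 6.90 CPM, fell inside the treated range. The log2 fold change of Fgf2 was -0.83 (standard error 0.269), and -1.01 without Het and this library. Nudt6, the gene that overlaps Fgf2, was not called (log2 fold change -0.05, standard error 0.165, FDR 0.818).

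Fgf21, a hormone-like ligand known from liver and metabolic stress, was low. It had 20, 40, 10, 8 and 12 counts in the WT, Het and KO control libraries and 2, 13, 2 and 4 counts with doxorubicin. Het had the most counts in both treatments, and its treated library lay above each of the 3 KO controls. The log2 fold change was -1.92 (standard error 0.441), and within the pairs it lay between -0.96 and -2.49. Fgf10, the mesenchymal ligand of lung and limb buds, was at 6.04 CPM in WT and 4.50 and 6.31 CPM in KO embryos 1 and 2 in control, but at 0.328 CPM in Het and 1.35 CPM in KO embryo 3. With doxorubicin Fgf10 was at 2.44, 0.618, 1.98 and 2.34 CPM in WT, Het and KO embryos 1 and 2. Its log2 ratio was -1.27, -1.14 and -1.39 in WT and KO embryos 1 and 2 and 0.75 in Het. The value of KO embryo 2 was 0.75 against the control of KO embryo 3, and the fitted value of -0.67 became -1.30 without Het and the control of KO embryo 3. The libraries with the least Fgf10 were those with a low sum of fibroblast markers and a high sum of macrophage markers, and the part of cell make-up in this was not tested. Fgf1, the acidic FGF, ranged from 0.302 to 2.66 CPM in control and from 0.747 to 1.52 CPM with doxorubicin, so the treated range lay within the control range.

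Set on a common scale of CPM per kilobase of exon, the 7 ligands summed to between 18.3 and 34.5 in the control libraries and between 13.1 and 16.4 with doxorubicin. In control, Fgf7 made up between 72.9% and 92.4% of this sum and Fgf18 between 1.21% and 4.70%. With doxorubicin, Fgf7 made up between 5.61% and 8.81% and Fgf18 between 62.8% and 75.1%. The leading ligand of the 7 was thus Fgf7 in each of 5 control libraries and Fgf18 in each of 4 treated ones.

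**Figure D1:**
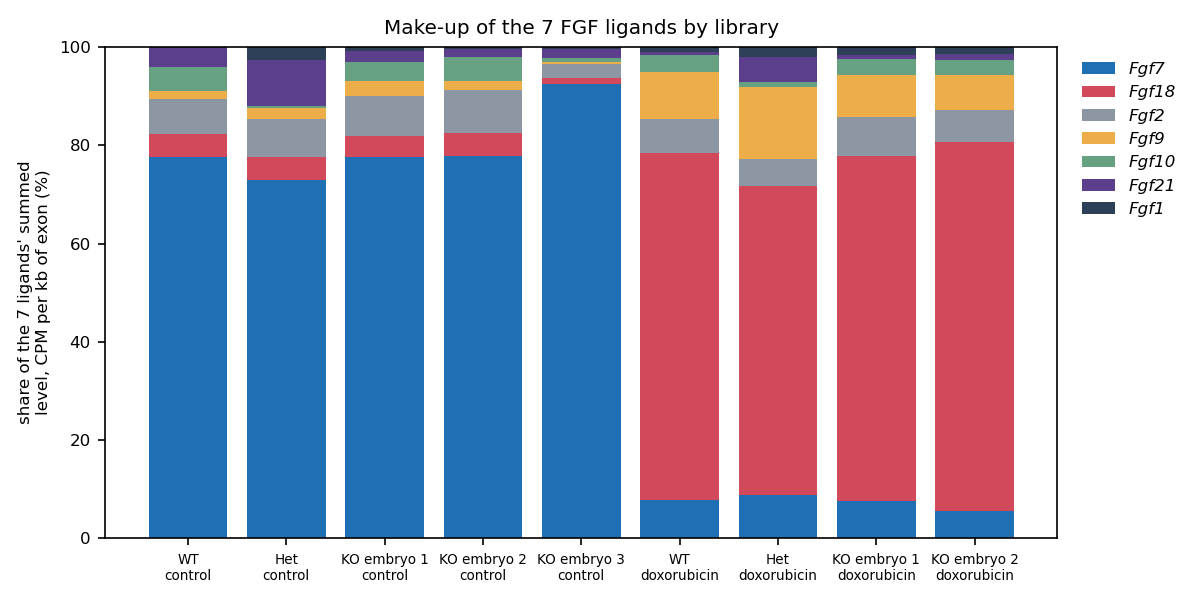
Each bar is 1 library, and its colours give the share in percent of each of the 7 ligands in their summed level (CPM per kilobase of exon). Fgf7 takes between 72.9% and 92.4% in the 5 control libraries, and Fgf18 takes between 62.8% and 75.1% in the 4 libraries with doxorubicin.

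Of the receptors, Fgfr1, the main FGF receptor of mesenchyme, was at 412 CPM in WT, 274 CPM in Het and 396, 366 and 252 CPM in KO in control. With doxorubicin it was at 152, 125, 163 and 126 CPM in WT, Het and KO embryos 1 and 2. The groups did not overlap, and the mean was 2.41-fold lower, with a log2 fold change of -1.24 (standard error 0.198). Fgfr3, a receptor known as a brake on cartilage growth, was at 1.86 CPM in WT, 11.6 CPM in Het and 4.24, 2.93 and 1.89 CPM in KO in control. With doxorubicin Fgfr3 was at 19.96, 21.4, 21.3 and 19.1 CPM. The treated libraries lay close together and above each control, while the controls spread widely, so the log2 ratio came to 3.36 for WT, 0.88 for Het, 2.30 for KO embryo 1 and 2.67 for KO embryo 2 (3.27 against the control of KO embryo 3). The fitted log2 fold change was 2.49 (standard error 0.403).

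Fgfr2, the receptor whose epithelial splice form binds Fgf7 and Fgf10, differed more among the control libraries than between the treatments. In control it was at 53.9 CPM in WT and 54.8 and 64.3 CPM in KO embryos 1 and 2, but at 16.0 CPM in Het and 18.2 CPM in KO embryo 3. With doxorubicin Fgfr2 was at 50.6, 47.5 and 49.6 CPM in WT and KO embryos 1 and 2 and at 30.0 CPM in Het. Its fitted log2 fold change of 0.25 (standard error 0.346) was -0.21 without Het and the control of KO embryo 3. Counts per gene do not separate the splice forms of the receptors.

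**Figure D2:**
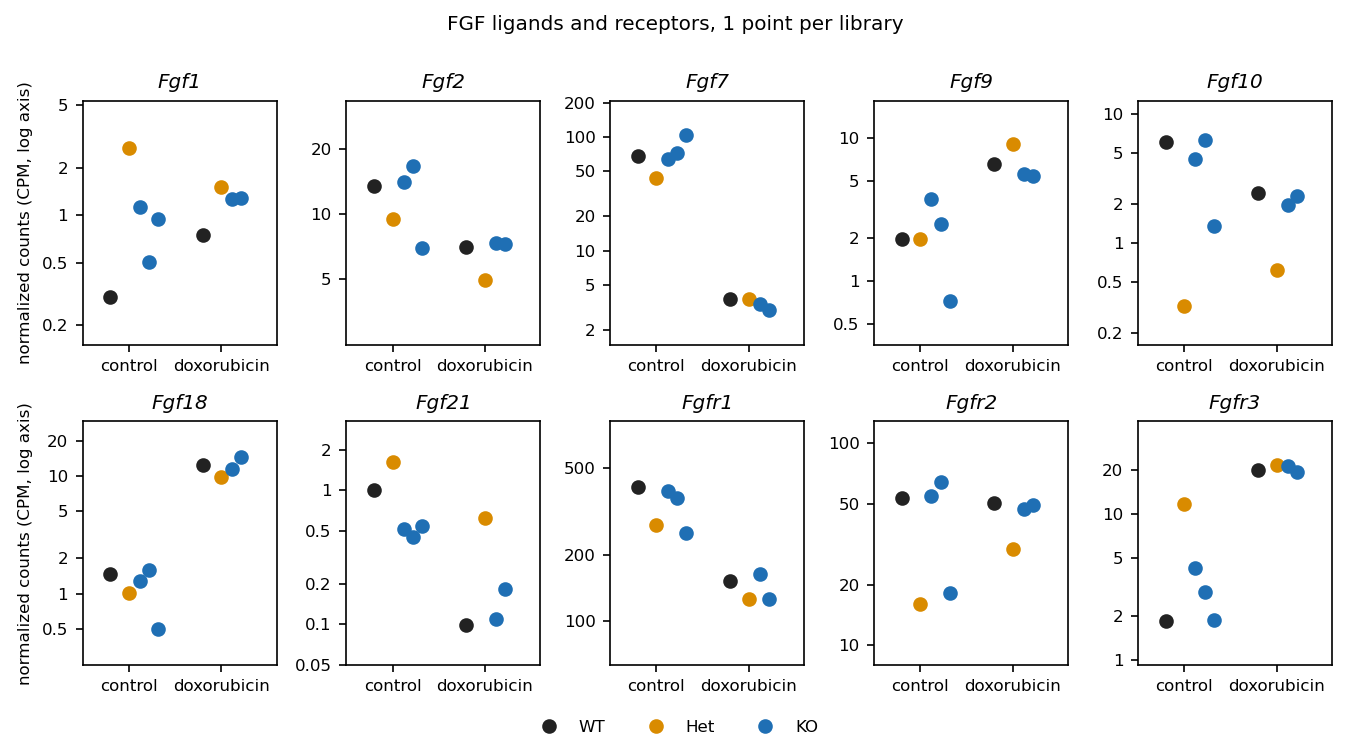
Normalized counts (CPM, log axis) of the 10 genes in control and with doxorubicin, with 1 point for each of the 9 libraries, coloured by genotype. Fgf7 lies at or above 43.5 CPM in control and at or below 3.76 CPM with doxorubicin, while Fgf18 lies at or below 1.58 CPM in control and at or above 9.80 CPM with doxorubicin.

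Per kilobase of exon, the levels in control were in the order Fgfr1 (34.4 ± 7.34), Fgf7 (21.6 ± 6.65), Fgfr2 (4.01 ± 2.19), Fgf2 (1.78 ± 0.569), Fgf18 (0.986 ± 0.363), Fgf21 (0.874 ± 0.528), Fgf10 (0.806 ± 0.594), Fgfr3 (0.630 ± 0.572), Fgf9 (0.467 ± 0.233) and Fgf1 (0.203 ± 0.170), as CPM per kilobase (SD, n = 5). From Fgf18 down to Fgf9, neighbours in this order differed by less than their SD. With doxorubicin the order was Fgfr1 (14.3 ± 1.91), Fgf18 (10.2 ± 1.69), Fgfr2 (4.30 ± 0.938), Fgfr3 (2.86 ± 0.154), Fgf9 (1.43 ± 0.358), Fgf7 (1.07 ± 0.111), Fgf2 (0.979 ± 0.167), Fgf10 (0.401 ± 0.183), Fgf21 (0.266 ± 0.259) and Fgf1 (0.221 ± 0.0599), as CPM per kilobase (SD, n = 4). Fgf7 moved from the second to the sixth place, and Fgf18 from the fifth to the second. Neighbours from Fgf9 to Fgf2, and from Fgf10 to Fgf1, did not differ by more than the larger of their SDs.

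The genes with the pattern most like that of Fgf7 over the 9 libraries, among 13859 genes at an average of at least 1 CPM, were Zfp763, Zfp583, Zfp90, Zfp60 and Filip1l. The first 4 encode zinc finger proteins. Likeness was the root mean square difference of log2 CPM, each gene taken about its own mean, and was 0.40 for Zfp763, 0.49 for Zfp583, 0.54 for Zfp90, 0.56 for Zfp60 and 0.58 for Filip1l. With doxorubicin Zfp763 had 2, 6, 3 and 4 counts and Zfp583 had 1, 4, 1 and 1 counts in WT, Het and KO embryos 1 and 2. So near the floor, the prior count of 2 in log2 CPM narrows their change, and their place in this order is uncertain. Zfp60 was at between 15.9 and 20.6 CPM in control and between 1.39 and 1.93 CPM with doxorubicin.

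The knockout was compared with WT in each treatment, which asks whether Sall2 bears on these genes. Neither comparison called any of the 10. In control, edgeR's quasi-likelihood test called 0 of 14470 genes (0%) between 1 WT and 3 KO libraries, with 10 genes at an unadjusted p under 0.05, and DESeq2 called 0, with 94. Of the 10 FGF genes 10 were tested and 0 had an unadjusted p under 0.05. The largest differences were those of Fgf1 (log2 fold change 1.54, standard error 1.07, edgeR FDR 1.00), Fgf21 (-0.95, standard error 0.846, FDR 1.00) and Fgfr3 (0.73, standard error 0.739, FDR 1.00). Since WT is 1 library, the spread comes from the KO embryos, among them KO embryo 3. Without the control library of KO embryo 1 there were 47 genes called, without that of KO embryo 2 there were 41, and 0 of the 10 FGF genes were among them.

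With doxorubicin, 30 of 15256 genes were called between 1 WT and 2 KO libraries (0.197%). The KO level was above WT for 18 of them and below it for 12, and DESeq2 called 5. With all 9 libraries in 1 fit the number was 0. A KO library was left out only in that kind of fit, with 0 called again, so what the calls owe to either KO library was not tested apart from the fit. Fgf21 was too low to be tested, and of the other 9 FGF genes 0 were called by edgeR, with 0 at an unadjusted p under 0.05, and 0 by DESeq2. Their log2 fold changes lay between -0.26 for Fgf9 (standard error 0.309, FDR 1) and 0.77 for Fgf1 (standard error 0.576, FDR 1). For Sall2 the log2 fold change was -1.24 (standard error 0.303, FDR 0.0187), which missed the threshold. In the 16 gene lists examined 1 gene was called, the endothelial marker Emcn, lower in KO (-1.93, standard error 0.193, FDR 5.49e-20). Emcn was at 73.9 CPM in WT and 18.7 and 20.01 CPM in KO, and with all 9 libraries in 1 fit it was not called. Het, outside this comparison, was at 16.65 CPM. In control Emcn was at 41.0 CPM in WT, 12.2 CPM in Het and 10.1, 11.5 and 13.7 CPM in KO. The call thus rests on the 1 WT embryo, which stood above Het as well as KO. Fgf9 lies on chromosome 14 at 5.74 Mb from Sall2, which was targeted in cells of the 129P2 strain, and the part of strain sequence around Sall2 in its counts was not tested. The difference between KO and WT in their response to doxorubicin was tested as an interaction, and 0 of 15905 genes (0%) were called by edgeR, with 41 genes at an unadjusted p under 0.05, and 0 by DESeq2, with 24. The interaction terms of the 10 FGF genes lay between -0.73 for Fgf1 (standard error 1.07) and 1.53 for Fgf21 (standard error 1.21), both at an FDR of 1. These intervals are wide, and a miss of the threshold does not show that the genotypes were alike.

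The other genes of the pathway were tested in doxorubicin against control by lists of known members. The counts of each list stand against 21.9% of all genes tested that rose and 18.7% that fell, and against 57% called with the embryo as a replicate block (30.0% rose, 26.9% fell). The block takes the identical library as KO embryo 2 unless KO embryo 3 is named, where 38.6% were called. In the block the control library of the KO embryo without a treated partner has a term of its own. It then adds nothing to the fitted change with doxorubicin. The replicate block and the fit without the control of KO embryo 3 are therefore nearly the same fit, not 2 separate checks. Without the control of KO embryo 3, 58.9% of all genes were called (31.4% rose, 27.5% fell). Where a gene had at most 10 counts in every control library, it was tested only because it was higher with doxorubicin. This limit holds for Fgf3, Fgf4, Fgf8, Fgf15, Fgf16, Fgf17, Fgfr4, Kl, Gpc5, Krt5, Epcam, Cldn7, Cldn5 and Pax7 and for the counts and medians that include them. Of the 11 ligands outside the 10, 7 were tested, 5 rose and 0 fell. The 5 that rose are all under this limit. The median log2 fold change was 4.35 with genes absent from control set at their bound, against 0.02 over the 16656 genes tested. Over all genes of the list with at least 1 count it was 4.33, where the absent genes held fitted values in place of bounds. The median over all 20958 genes of that fit was 0.23, so these list medians rest on unlike bases. Fgf4, a ligand of the early embryo and of the limb bud ridge, had 0 counts in each of 5 control libraries and 159, 209, 151 and 155 counts in WT, Het and KO embryos 1 and 2 with doxorubicin, at least 56.7-fold higher against a floor of 3 counts per library (edgeR FDR 0.000151). Fgf3, a ligand of the inner ear and tail bud, was likewise at 0 counts in the 5 controls and at 59, 109, 34 and 54 counts with doxorubicin, at least 21.3-fold higher (FDR 0.000454). Fgf8, a signal of organizing centres in limb and brain, was at 0 counts in control and at 10, 20, 15 and 11 counts with doxorubicin, at least 4.74-fold higher (FDR 0.00251, but 0.0173 and 0.0155 without the doxorubicin library of KO embryo 1 or 2). These 3 genes were thus detected in each treated library and in no control library.

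Fgf15, the intestinal hormone that signals bile acid supply to the liver, had 0, 5, 1, 0 and 0 counts in the WT, Het and KO controls and 168, 112, 172 and 146 counts with doxorubicin (log2 fold change 7.03, standard error 0.757, FDR 0.000115). Fgf16 had 1, 4, 6, 3 and 1 counts in control and 69, 59, 52 and 63 counts with doxorubicin (log2 fold change 4.35, standard error 0.515, FDR 0.000182). Both rose in 4 of 4 pairs, with either control for KO embryo 2. Fgf17 had 0 to 5 counts in control and 2 to 15 counts with doxorubicin (FDR 0.124, but 0.00833 with the replicate block and 0.00377 without the control of KO embryo 3, and 0.105 with the block by KO embryo 3). Fgf20 had 1 count in all controls and 31 counts with doxorubicin and was not tested, and the ratio of its CPM was 39.6 (95% exact counting interval 6.60 to 1614). Fgf5 had a log2 fold change of 0.16 (FDR 0.807), and Fgf22 and Fgf23 had at most 6 counts in any library. Of the 4 intracellular FGF homologous factors, relatives that are not secreted and bind sodium channels, Fgf13 (3.25, standard error 0.283, FDR 4.64e-05) and Fgf12 (2.68, standard error 0.432, FDR 0.000911) rose on the log2 scale, 0 fell, and with the replicate block 3 of 4 rose, with Fgf11 added (FDR 0.0606, but 0.000344 with the block and 0.000191 without the control of KO embryo 3). With the block by KO embryo 3 the FDR of Fgf11 was 0.0199 and 2 of 4 rose.

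Fgf3, Fgf4 and Fgf15 are neighbours on chromosome 7 (GRCm38), and the genes beside them were examined after this was seen. Fgf3 spans 144838083 to 144844436, Fgf4 144847367 to 144865243 and Fgf15 144896531 to 144900953, all on the forward strand. Ccnd1, the gene of cyclin D1, follows at 144929931 to 144939925. It was at between 129 and 346 CPM in control and between 128 and 300 CPM with doxorubicin (log2 fold change -0.06, standard error 0.216, FDR 0.823), and the sign of this value turned in 6 of 18 settings. The next genes of the count table on either side, Ano1 (-1.27, standard error 0.244, FDR 0.00228) and Tpcn2 (-1.40, standard error 0.171, FDR 0.000212), fell on the log2 scale, Ano1 with an FDR of 0.0130 without the doxorubicin library of KO embryo 2. Of these 6 genes the 3 ligand genes rose and 0 of the genes around them did.

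**Figure D3:**
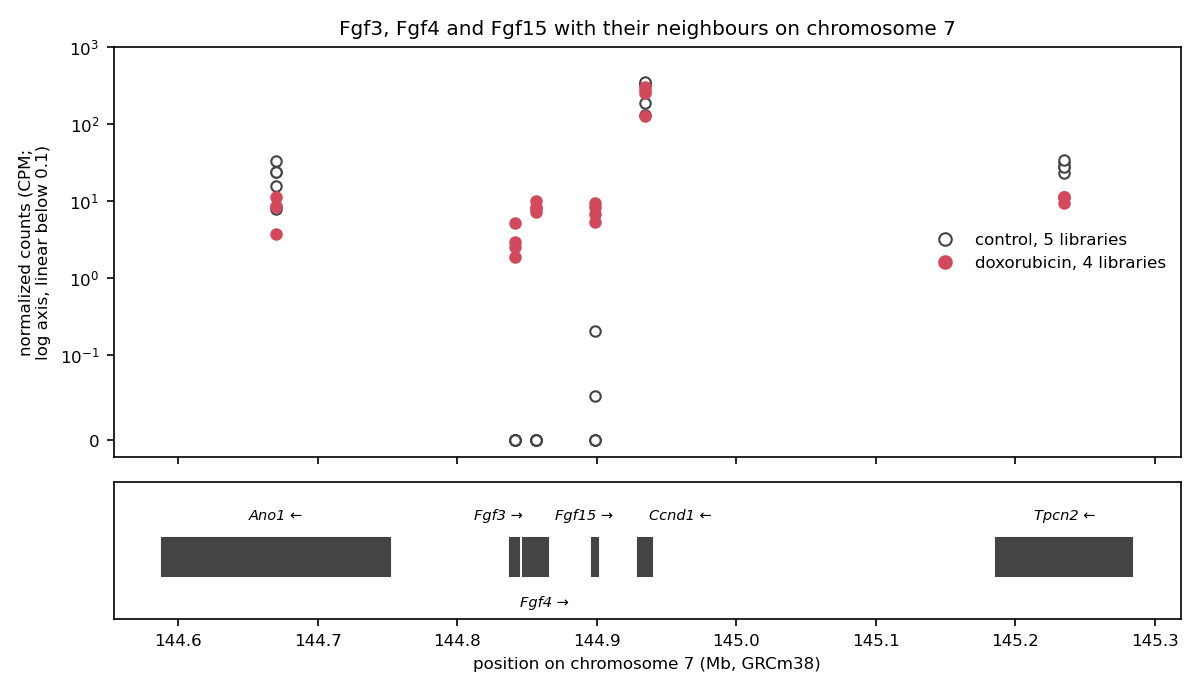
Normalized counts (CPM, log axis that is linear below 0.1) of the genes between Ano1 and Tpcn2 on chromosome 7, drawn to scale with arrows for the strand, open points for 5 control and filled points for 4 doxorubicin libraries. The short RNA gene Bc1 is left out. Fgf3 and Fgf4 are at 0 in the controls and at or above 1.87 CPM with doxorubicin, while Ccnd1 lies between 128 and 346 CPM in both.

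The sequences before the starts of Fgf7, Fgf18 and Fgf4 are shown, since Fgf7 and Fgf18 changed places as the leading ligand and Fgf4 was absent from control. Promoters of 8 of the 10 genes were found in the RefSeq set (GRCm38.p6), not those of Fgf1 and Fgfr1. Shown are the 250 bases before each start, with each CG in capitals, the dinucleotide at which DNA is methylated, which reads the same on both strands. The set holds 32841 promoters, with a median of 6 CG in this window, and the RefSeq start of Fgf4 lies inside the GENCODE span of the gene given above.
Fgf7, chr2:126034408-126034657, forward strand: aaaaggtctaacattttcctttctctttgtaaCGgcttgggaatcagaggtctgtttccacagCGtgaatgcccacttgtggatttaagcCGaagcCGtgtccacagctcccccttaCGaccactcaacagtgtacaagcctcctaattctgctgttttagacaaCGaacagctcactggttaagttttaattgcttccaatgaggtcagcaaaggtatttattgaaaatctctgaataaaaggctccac
Fgf18, chr11:33147401-33147650, reverse strand: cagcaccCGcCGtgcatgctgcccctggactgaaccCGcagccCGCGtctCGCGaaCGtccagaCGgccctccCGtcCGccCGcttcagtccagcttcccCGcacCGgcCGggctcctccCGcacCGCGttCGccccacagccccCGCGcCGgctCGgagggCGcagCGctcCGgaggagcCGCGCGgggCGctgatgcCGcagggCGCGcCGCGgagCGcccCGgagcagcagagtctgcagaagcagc
Fgf4, chr7:144861136-144861385, forward strand: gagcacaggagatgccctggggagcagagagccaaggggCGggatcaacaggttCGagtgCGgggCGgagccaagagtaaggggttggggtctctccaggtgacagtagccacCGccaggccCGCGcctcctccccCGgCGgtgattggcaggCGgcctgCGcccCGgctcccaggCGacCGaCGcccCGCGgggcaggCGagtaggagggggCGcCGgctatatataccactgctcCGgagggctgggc
Fgf7 held 6 CG, and 50.4% of the promoters held at least as many. Fgf18 held 37 CG, which 2.2% of the promoters reached, and Fgf4 held 21 CG, which 16.4% reached. Fgf3, which rose with Fgf4, held 4 CG, so the genes that rose differed in this number. Among the other members, Fgf21 held 9, Fgf10 held 8, Fgf9 held 11, Fgf2 held 20 and Fgfr2 held 2 CG, and the listed starts of Fgfr3 held 19 and 24.

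Both receptors outside the 10 rose, with the limit given above for Fgfr4. Fgfr4, the receptor of liver and muscle progenitors, was at 1, 10, 3, 2 and 4 counts in the WT, Het and KO controls and at 33, 78, 43 and 44 counts with doxorubicin (log2 fold change 3.79, standard error 0.377, FDR 7.93e-05). Fgfrl1, a receptor that binds FGFs but lacks the kinase domain, was at 64.4, 51.8, 63.7, 61.6 and 44.1 CPM in control and at 221, 102, 216 and 222 CPM in WT, Het and KO embryos 1 and 2 with doxorubicin (log2 fold change 1.71, standard error 0.203, FDR 0.000184). Het was the lowest of the treated libraries and still lay above each control. Per kilobase of exon, Fgfrl1 went from 20.5 ± 3.19 (SD, n = 5) to 68.3 ± 21.2 (SD, n = 4) CPM, and so from below Fgfr1 in the means (34.4 ± 7.34 in control) to above it (14.3 ± 1.91 with doxorubicin).

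Among 18 co-receptors and matrix partners 17 were tested, of which 4 rose, 2 fell and 11 were not called, with a median log2 fold change of 0.66. With the replicate block 6 rose and 2 fell, and 1 fell without the control or the doxorubicin library of KO embryo 1 or 2. Fgfbp3, a carrier that frees FGFs from the matrix, rose (3.65, standard error 0.219, FDR 9.93e-06), as did Flrt1 (1.85, standard error 0.401, FDR 0.00424), a membrane protein that binds FGF receptors. Its relatives Flrt3 (-2.76, standard error 0.418, FDR 0.000649) and Flrt2 (-1.45, standard error 0.349, FDR 0.00712) fell. Without the doxorubicin library of KO embryo 1 or 2 the FDR of Flrt1 was 0.0226 and 0.0139 and that of Flrt2 0.0336 and 0.0353, and without the control of KO embryo 1 or 2 that of Flrt2 was 0.0130 and 0.0132. The others that rose, Kl, the co-receptor klotho of endocrine FGFs, and the glypican Gpc5, were each below 1.2 CPM in every library. Of 12 genes that build or edit heparan sulfate, 0 rose and 3 fell, where 18.7% of all genes tested fell. These were Ndst2 (-2.32, standard error 0.201, FDR 4.60e-05), Ext1 (-1.78, standard error 0.227, FDR 0.000264) and Ndst1 (-1.60, standard error 0.282, FDR 0.00145). Ext1 is a subunit of the enzyme that extends the chain, and the Ndst enzymes start its sulfation. With the replicate block, and also without the control of KO embryo 3, 2 of the 12 rose and 5 fell, but 0 rose and 3 fell with the block by KO embryo 3, and without the doxorubicin library of KO embryo 2 the FDR of Ndst1 was 0.0104. The list's median was -0.082, but 0.11 with upper-quartile scaling, 0.02 with total counts, 0.048 without Het and 0.072 in KO alone, so its sign depends on the scaling and on the libraries.

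Of 20 receptor adaptors and members of the RAS-ERK chain, 1 rose and 6 fell, where 21.9% and 18.7% of all genes tested did, with a median log2 fold change of -0.38. Among those that fell were Braf (-1.74, standard error 0.160, FDR 5.79e-05), Cbl (-1.62, standard error 0.247, FDR 0.000676), Nras (-1.28, standard error 0.124, FDR 7.09e-05) and Frs2 (-0.78, standard error 0.164, FDR 0.00378). Nras is a RAS protein, Braf a kinase below it, Frs2 the docking protein of FGF receptors and Cbl the ligase that marks receptors for breakdown. Hras, a RAS gene as well, rose (0.82, standard error 0.151, FDR 0.00184). With the replicate block, and also without the control of KO embryo 3, 2 rose and 10 fell, where 57% of all genes were called with the block. With the block by KO embryo 3, 1 rose and 4 fell, and the FDR of Frs2 was 0.0104. Without the doxorubicin library of KO embryo 1 or 2, 4 fell and the FDR of Frs2 was 0.0214 and 0.0173, and without that of KO embryo 2 the FDR of Hras was 0.0111, so that 0 rose.

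Of 9 feedback inhibitors, 5 fell, 1 rose and 3 were not called, with a median log2 fold change of -0.92. Spred3 (-2.23, standard error 0.334, FDR 0.000623), Spry3 (-1.99, standard error 0.329, FDR 0.00105), Spred1 (-1.56, standard error 0.212, FDR 0.000376), Spry1 (-1.25, standard error 0.249, FDR 0.00275) and Spry2 (-0.92, standard error 0.151, FDR 0.00101) fell. Spred1 was at 142, 71.2, 144, 143 and 76.2 CPM in the WT, Het and KO controls and at 44.4, 25.2, 38.1 and 43.9 CPM with doxorubicin, so the groups did not overlap. Spry4 rose (0.69, standard error 0.176, FDR 0.00964), but its call was lost in 9 of 18 settings, among them without the control of KO embryo 2 (FDR 0.0239) and without the doxorubicin library of KO embryo 1 (0.0328) or 2 (0.0367). Without these doxorubicin libraries the FDR of Spry1 was 0.0131 in both cases. For Dusp6, the phosphatase that switches off ERK, the value was -0.60 (standard error 0.159, FDR 0.0112), but the FDR was 0.00190 with the replicate block, where 6 of the 9 fell, and 0.000850 without the control of KO embryo 3. With the block by KO embryo 3 it was 0.0249, and that of Spry4 was 0.0124, so that 0 rose.

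Of 8 ETS factors and early targets, 2 rose and 1 fell, with a median log2 fold change of 0.75. Fos, an immediate early transcription factor, was at 11.7, 7.53, 14.5, 13.0 and 6.67 CPM in the WT, Het and KO controls and at 74.8, 73.5, 75.5 and 70.7 CPM with doxorubicin (2.84, standard error 0.245, FDR 4.55e-05). Its relative Fosl1 rose as well (1.46, standard error 0.215, FDR 0.000573), and Myc fell (-1.21, standard error 0.188, FDR 0.000770). Etv4 (0.32, FDR 0.111) and Etv5 (0.73, FDR 0.0238), ETS factors that FGF signals induce, were not called, but with the replicate block their FDRs were 0.00901 and 0.00162 and 5 of the 8 rose. Without the control of KO embryo 3, which is nearly the same fit, 5 rose as well, and these FDRs were 0.00784 and 0.000825. With the block by KO embryo 3 they were 0.222 and 0.0166, and 3 rose. Each of these lists of feedback, RAS-ERK and target genes thus held genes called in both directions.

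**Figure D4:**
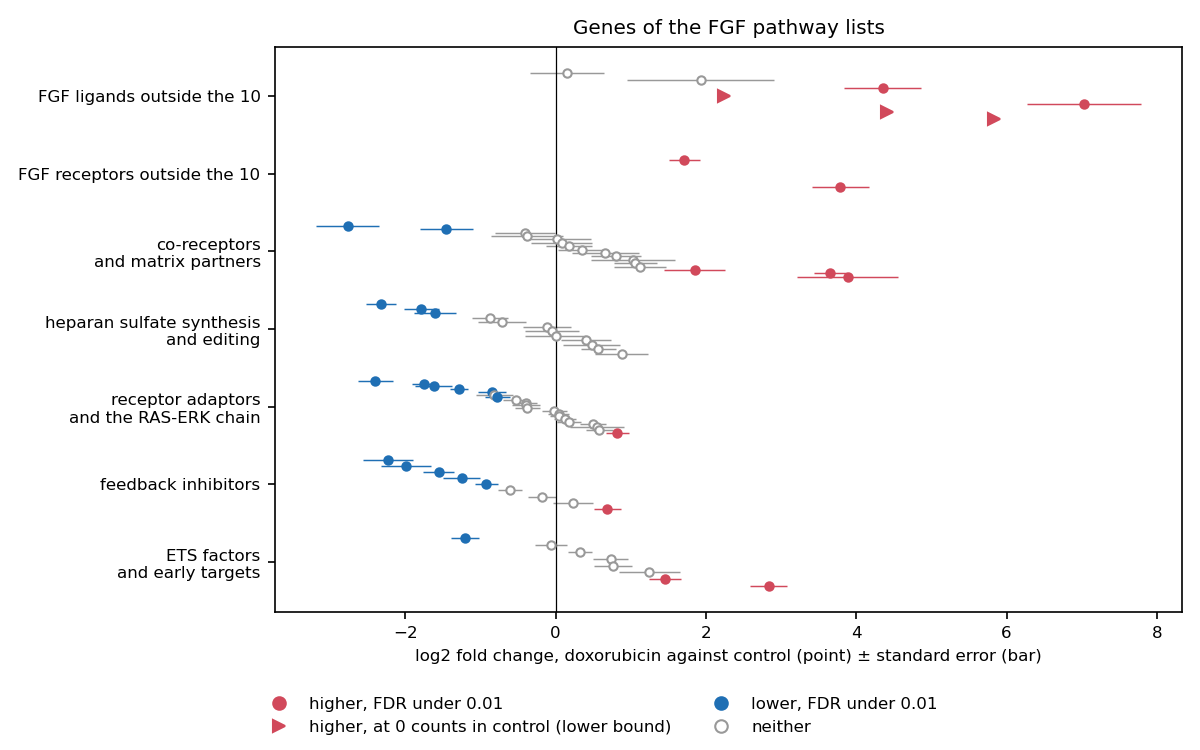
Log2 fold change of doxorubicin against control (points, with the standard error as bars) for the tested genes of 7 lists, red or blue where the FDR is under 0.01. Kl, with 1 count in all controls, is left out. Triangles mark the lower bounds of Fgf3, Fgf4 and Fgf8, at 0 counts in control, of which that of Fgf4 is the highest at 5.83.

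As a check of the treatment, the 8 p53 targets were examined, of which 1 rose and 0 fell. Sesn1 rose (log2 fold change 1.20, standard error 0.242, FDR 0.00288, but 0.0114 and 0.0117 without the doxorubicin library of KO embryo 1 or 2). Cdkn1a, the cell cycle inhibitor p21, was at 561, 533, 453, 495 and 394 CPM in the WT, Het and KO controls and at 271, 298, 309 and 337 CPM with doxorubicin (-0.67, standard error 0.187, FDR 0.0145, but 0.000580 with the replicate block and 0.000407 without the control of KO embryo 3, and 0.0380 with the block by KO embryo 3). Mdm2 was not called (-0.25, standard error 0.302, FDR 0.512). Of the 10 interferon-stimulated genes 0 were called in either direction, but 2 rose with the replicate block (0 by KO embryo 3), 3 without the control of KO embryo 3 (where 31.4% of all genes rose) and 10 without Het and that library (where 35.1% rose).

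Markers of other cells were examined as well. Of the 12 fibroblast markers 0 rose and 2 fell, Pdgfrb (-2.83, standard error 0.344, FDR 0.000212) and Prrx1 (-1.91, standard error 0.223, FDR 0.000173), and with the replicate block, or without the control of KO embryo 3, 1 rose and 4 fell. With the block by KO embryo 3 the counts were again 0 and 2. Of 7 macrophage markers, Cd68 rose and Csf1r fell, the latter with an FDR of 0.00576 that was 0.0121 without the control of KO embryo 1 and 0.0130 and 0.0231 without the doxorubicin library of KO embryo 1 or 2. Of 8 epithelial markers, led by Krt19, 6 were tested, 4 rose, of which 3 were tested only because they were higher with doxorubicin (Krt5, Epcam and Cldn7), and 1 fell, and their sum was between 10.7 and 32.2 CPM in control and between 42.3 and 98.9 CPM with doxorubicin. Those that rose were Krt19 (log2 fold change 2.49, FDR 0.00143), Krt5 (at most 1 count in any control library and 54, 10, 88 and 71 counts with doxorubicin, FDR 5.06e-05), Epcam (at most 7 counts, and 73, 60, 61 and 68 counts, FDR 0.000605) and Cldn7 (at most 4 counts, and 50, 67, 56 and 59 counts, FDR 0.000149), and Krt18 fell (-1.62, FDR 0.000578). With the replicate block 5 rose and 1 fell, but the gene added missed the threshold with the block by KO embryo 3. It is also under the limit given above. Krt14, a defining keratinocyte gene, was at 0 counts in each control and at 0, 2, 6 and 1 counts in WT, Het and KO embryos 1 and 2 with doxorubicin. Of 8 endothelial markers, led by Emcn, 7 were tested, 3 rose and 0 fell, but 5 rose with the replicate block (4 by KO embryo 3) or without the control of KO embryo 3, with sums between 18.5 and 47.5 CPM in control and between 41.1 and 95.97 CPM with doxorubicin, while Tie1 stayed at or below 0.143 CPM. Esam rose from at most 21 counts to 72, 106, 71 and 87 counts (FDR 0.000240) and Cldn5 from at most 1 count to 31, 12, 33 and 32 counts (FDR 0.000107, under the same limit). Emcn rose (0.70, FDR 0.00426), but its FDR was 0.0106 and 0.0126 without the control of KO embryo 1 or 2 and 0.0168 and 0.0229 without their doxorubicin libraries, and 0.0111 with the block by KO embryo 3. Of 8 glia and neural crest markers, led by Erbb3, 2 rose, Erbb3 (2.95, FDR 0.000477) and Foxd3 (3.82, FDR 0.000189), and Sox10 fell (-2.28, FDR 0.00101), with sums between 12.1 and 64.9 CPM in control and between 38.5 and 51.8 CPM with doxorubicin. Of 8 muscle markers, led by Des, 7 were tested and 1, Pax7, rose, under the same limit, but 2 rose with the replicate block (1 by KO embryo 3), and 2 rose and 1 fell without the control of KO embryo 3, with sums between 64.4 and 130 CPM in control and between 72.3 and 158 CPM with doxorubicin, while Myf5 stayed at or below 0.0996 CPM. The part of other cells in the changes of the FGF genes was not tested.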

How the data were processed

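Per the labels, total RNA was depleted of ribosomal RNA, enriched for messenger RNA and sequenced from stranded libraries, with 4 sequencing files per library. Upstream tools were HISAT2 (version 2.1.0 in the submitters' processing notes, genome build mm10) and HTSeq (union mode), run with the 4 files of a library pooled. The deposited values are whole-number counts, not normalized. The strand setting of HTSeq is not given in the sources used here, so values of overlapping genes, such as Fgf2 with Nudt6, Fgf1 with Arhgap26 and Fgf7 with Fam227b, are uncertain.

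Groups came from the labels. TMM factors scaled the libraries, filterByExpr removed low genes by the groups of each comparison, and the test was edgeR 4.0.16, quasi-likelihood and two-sided (R 4.3.3, limma 3.58.1), with Benjamini-Hochberg adjustment over all genes tested, at an FDR under 0.01. The standard error is the fold change over the root of the test's F value. Doxorubicin was compared with control with genotype as a term (9 libraries), and KO with WT within each treatment and as an interaction. WT and Het have 1 library per treatment, so p-values rest on the spread between the KO embryos and between genotypes, and measure only the spread between these samples. Ratios within pairs used log2 CPM with a prior count of 2. Where a group was at 0, folds were lower bounds from a floor of 3 counts per library. Exon lengths and coordinates are from GENCODE M21 (GRCm38), promoters from RefSeq. The annotated exons of Fgfr2 include rare long transcripts, so its level per kilobase may be low. The tests were also run on simulated data, and the outcome is not reported here.

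The genes and lists were chosen with earlier results of these data known. Named are the 10 genes with values in each library, from each list at most 6 genes per direction with the largest change among those called that averaged 1 CPM or more, the other FGF receptors, each ligand with over 3 counts in any library, Sall2, Cdkn1a and Mdm2, the most abundant and the near-absent genes of the cell type lists, and the 5 genes most like Fgf7. Other genes, among them the neighbours of Fgf3, the genes that overlap a member, Pdgfrb, Prrx1, Cd68, Csf1r, Pax7, Kl, Gpc5, Emcn and the other called markers of cell types, were named after their values were seen. Results of some genes of the lists are not reported here. Rn45s, the ribosomal precursor left after depletion, took between 0.0387% and 3.17% of the counts. KO libraries carry the same numbers in both treatments, taken as embryos. As a check, KO embryo 1 minus KO embryo 2 in control was set against the same difference under doxorubicin, with a Pearson correlation of 0.476 across 13860 genes, which are not independent replicates. Alternatives were DESeq2 1.42.0, upper-quartile, RLE or no scaling, no filter, an FDR of 0.05 or 0.001, libraries left out, the embryo as a block, RUVg with 1 factor and all libraries in 1 fit.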

Additional observations from a re-analysis of the deposited data

Results flagged for a closer look

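The change of 3 genes with doxorubicin went the opposite way in Het from both KO embryos and WT where the identical library is taken as KO embryo 2. Against the control of KO embryo 3 its log2 ratio was 0.40 for Fgf1, 0.75 for Fgf10 and 1.44 for Fgfr2, so for Fgf10 and Fgfr2 it then had the sign of Het. The difference between genotypes was not tested, since Het is 1 pair of libraries. The log2 ratio of doxorubicin to control in Het was -0.77 for Fgf1, 0.75 for Fgf10 and 0.90 for Fgfr2, against 1.08, -1.27 and -0.09 in WT. In the control library of Het the interferon-stimulated genes summed to 2171 CPM and the fibroblast markers to 20550 CPM, and the part of this in the ratios was not tested.

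Of 33 sets of a gene and a treatment examined over 18 genes, 8 had 1 library far from the others. The rule was the published critical values of the Dixon ratio. Their level is about 1 in 20, which was not estimated from these data. Of the 8 libraries 6 were Het. With doxorubicin, Het lay below the other libraries in Fgf2 (4.95 CPM), Fgfr2 (30.0 CPM) and Fgfrl1 (102 CPM) and above them in Fgf21 (0.618 CPM, 13 counts). In control, Het lay above the others in Fgfr3 (11.6 CPM) and Fgf15 (0.205 CPM, 5 counts). WT lay above the others in Sall2 in control (38.1 CPM), where it is the library without a targeted allele, and in Fgf16 with doxorubicin (3.44 CPM).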

How the results depend on the processing

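Of the 10 FGF genes, 9 kept the sign of their change with doxorubicin over 18 settings (17 for Fgf21), between -4.61 and -4.07 for Fgf7, 3.17 and 3.59 for Fgf18, -1.40 and -1.04 for Fgfr1, and 2.23 and 2.97 for Fgfr3, while Fgfr2 ranged from -0.21 to 0.53. Between KO and WT and in the interaction, 0 of the FGF genes were called in any setting. Upper-quartile scaling moved the median log2 fold change of all genes by 0.19 and no filter by 0.21, and with the former 63.5% of the called genes rose, against 53.9%. Between KO and WT with doxorubicin 60.0% of the called genes were higher, but 40.0% with DESeq2, upper-quartile scaling or RLE factors. Total counts moved the median between KO and WT in control by 0.17 and that of the interaction by -0.16.

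The number of genes called with doxorubicin, 6760, was 3430 at an FDR under 0.001, 4463 without WT, 1911 in KO alone and 10281 without Het and the control of KO embryo 3. With 1 KO library left out at a time it lay between 4322 and 9770. With the replicate block it was 9486, or 6430 with the identical library taken as KO embryo 3. The former gives the control of KO embryo 3 no weight in the fitted change, and with that library left out the number was 9770. Of the genes named, the block with KO embryo 2 changed the calls of Fgf11, Fgf17, Dusp6, Etv4, Etv5, Cdkn1a, Arhgap26 and Bst2, which then passed, and of the FGF genes those of Fgf2 and Fgf9, and it changed no other call of a gene named. With the block by KO embryo 3 none of these passed but Fgf9, and Fgf21, Frs2, Spry4 and Emcn missed the threshold. Fgf2, Fgf9 and Fgf21 belong to the group chosen on this comparison, so nothing is read from their calls or from changes in them. The number of genes called between KO and WT with doxorubicin, 30, was 5 with DESeq2, 5 with upper-quartile scaling, 5 with RLE factors, 16 with total counts, 46 at an FDR under 0.05 and 0 with the 9 libraries in 1 fit. In such a fit with either KO library left out as well, a setting added after the data were seen in which the lone library is taken to vary like the other groups, it was 0 too. In control it lay between 0 and 47 with 1 KO library left out, and for the interaction it was 8 with the replicate block. The cause of these shifts was not tested, other than fewer libraries or another threshold.

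The sign turned for some genes that were not called, among them Fgf5, Mdm2, Nudt6, Ccnd1 and Bst2, and with the block Aif1 (-1.61 to 0.34) and Rn45s (-1.27 to 0.41). For Fgf5 it turned to -0.084 with the replicate block and -0.10 without Het and the control of KO embryo 3, and with 1 KO library left out the value lay between -0.092 and 0.44. For Mdm2 these were 0.030, 0.090, and between -0.35 and 0.039. For Nudt6 the value was 0.013 with DESeq2, 0.15 with upper-quartile scaling, 0.013 with RLE factors, 0.039 with total counts and 0.022 with the block by KO embryo 3, and between -0.12 and 0.016 with 1 KO library left out. For Ccnd1 it was 0.14 with upper-quartile scaling, 0.042 with total counts, 0.034 with the block by KO embryo 3, 0.0058 without WT and 0.024 in KO alone, and between -0.19 and 0.0054 with 1 KO library left out. Fgf5, Mdm2, Nudt6 and Ccnd1 were called in 0 of these settings. Bst2 (-0.69) turned to 1.23 with the replicate block, 0.19 with the block by KO embryo 3 and 1.45 without Het and the control of KO embryo 3, and lay between -0.88 and 1.22 with 1 KO library left out.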
